A study of Homo sapiens with 4 samples.

Results

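CHI3L1, STAT3 and 6 further genes tied to the mesenchymal form of glioblastoma were followed in crizotinib-treated U87 cells. U87 is a human glioblastoma cell line, and crizotinib blocks the kinases MET, ALK and ROS1. The 8 genes were CHI3L1, CHI3L2, STAT3, SOCS3, OSMR, IL6ST, IL13RA2 and CD44, taken by name from 23786 features, of which 22458 carried 1 gene symbol. They were chosen by their values on these arrays, in particular the higher level of CHI3L1 on both crizotinib arrays, so their differences between crizotinib and drug-free arrays are a description and carry no test. Total RNA was measured on 4 arrays, 1 per condition: 2 µM crizotinib for 24 hours, vehicle for 24 hours, 1 µM crizotinib for 21 days, and drug-free culture for 21 days. All cultures were the same line in medium with 10% serum, and the labels name neither the vehicle nor separate cultures within a condition. The labels call the 21-day arrays crizotinib-resistant and crizotinib-sensitive. The resistant array was read as the culture kept in drug and the sensitive array as its control, and the direction of every 21-day difference rests on this reading. Values are log2 expression, and a difference of 1 on this scale is a 2-fold ratio. Conditions were not repeated, so differences stand without an estimate of replicate spread and their precision is limited by the number of arrays. A gene was counted as 2-fold apart if its higher array reached 4.96, the median over all features and arrays (the level filter).

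CHI3L1 encodes a secreted glycoprotein of the chitinase family that binds chitin but has lost the enzyme activity, and it is a standard marker of the mesenchymal subtype of glioblastoma. Cytokines of the IL6 family bind receptors that share the subunit IL6ST, JAK kinases on these receptors phosphorylate STAT3, and STAT3 then enters the nucleus and switches on target genes, among them SOCS3, which shuts the pathway down again. STAT3 is also one of the transcription factors known to drive the mesenchymal state. An array measures transcripts, and the phosphorylation through which STAT3 acts was not measured here.

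The cells were first set against markers of their labelled type. Of 8 astroglial markers, 3 stood at or above 4.96 on each array, and GFAP, the intermediate filament of astrocytes, was at 4.50 and 4.91 in 24-hour crizotinib and vehicle, and at 4.74 and 4.80 in 21-day crizotinib and control. The defining astrocyte genes AQP4, ALDH1L1 and S100B were also below 4.96 on every array, while SOX9, a glial transcription factor, was between 6.52 and 8.31. Of 13 microglia and macrophage markers, cells that also make CHI3L1 in tumours, 1 stood above 4.96 on each array, the receptor CSF1R, at 5.18 to 5.64. PTPRC, the pan-leukocyte surface protein, was at 1.81 and 1.94 in 24-hour crizotinib and vehicle, and at 1.98 and 2.09 in 21-day crizotinib and control. The summed log2 level of the 13 was 44.9 in 24-hour crizotinib and 44.8 in vehicle, and 46.1 in 21-day crizotinib and 44.4 in the 21-day control. The part of these cells in the CHI3L1 difference was not tested. Of 8 endothelial markers, 1 or 2 stood at or above 4.96, with a sum of 34.8 in 24-hour crizotinib and 34.4 in vehicle, and of 35.1 in 21-day crizotinib and 35.2 in the 21-day control.

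CHI3L1 had the largest differences of the 8 genes in both pairs. Its level was 10.05 in 24-hour crizotinib against 7.91 in vehicle, and 10.56 in 21-day crizotinib against 7.38 in the 21-day control. Both crizotinib arrays therefore stood above both drug-free arrays. In RNA from whole cultures, more cells that express a gene and more transcript per cell cannot be told apart. The difference was 2.14 after 24 hours, a 4.41-fold ratio, and 3.18 after 21 days, a 9.09-fold ratio. Ordered from the highest difference, CHI3L1 (Entrez gene 1116, chromosome 1) was number 26 of the 12468 features that passed the level filter at 24 hours and number 17 of 12450 at 21 days. The drug-free arrays themselves were 0.53 apart on the log2 scale, with the 21-day control lower.

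CHI3L2 (Entrez gene 1117, chromosome 1), a close relative of CHI3L1 that also lacks chitinase activity, was higher on both crizotinib arrays by smaller amounts. It stood at 6.02 in 24-hour crizotinib against 5.50 in vehicle, a difference of 0.52, and at 5.67 in 21-day crizotinib against 4.03 in the 21-day control, a difference of 1.64. The second difference depended on the reference: the 21-day crizotinib array was close to the 24-hour vehicle array, and set against that array it differed by 0.17. The drug-free arrays differed by -1.47, and the 21-day control was the 1 array of the 4 on which CHI3L2 was below 4.96.

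The sequences around the start sites of this pair are shown because they are the secreted chitinase-like members and both were higher on each crizotinib array. Each runs from 250 bases before to 50 after the RefSeq start (GRCh38.p14), CHI3L1 at chr1:203186655-203186954 on the minus strand and CHI3L2, the upstream of its starts listed, at chr1:111227409-111227708 on the plus strand. Capitals mark the STAT motif TTCNNNGAA.
CHI3L1: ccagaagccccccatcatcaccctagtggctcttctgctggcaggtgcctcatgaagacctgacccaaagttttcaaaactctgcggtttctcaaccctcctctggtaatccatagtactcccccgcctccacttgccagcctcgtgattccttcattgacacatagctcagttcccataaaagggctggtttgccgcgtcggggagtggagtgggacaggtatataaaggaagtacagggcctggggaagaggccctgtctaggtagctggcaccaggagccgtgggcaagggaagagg
CHI3L2: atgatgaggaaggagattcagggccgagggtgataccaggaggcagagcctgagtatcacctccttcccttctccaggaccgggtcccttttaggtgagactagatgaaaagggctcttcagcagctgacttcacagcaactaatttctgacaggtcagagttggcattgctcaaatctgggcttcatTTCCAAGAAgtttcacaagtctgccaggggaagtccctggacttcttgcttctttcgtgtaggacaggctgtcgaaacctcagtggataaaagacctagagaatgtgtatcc
The CHI3L2 window holds the STAT motif once, as TTCCAAGAA beginning 62 bases before the start, and the CHI3L1 window holds no match. Among 34943 windows of this kind, 7.66% hold the motif, which reads the same on both strands. Windows were listed for 7 of the 8 genes, 9 windows in all, and a match to TTCNNNGAA was found in those of CHI3L2 and in no other. The pattern TGANTCA, a loose form of the AP-1 motif that allows any central base, is present on either strand in 7.72% of all windows. It was matched in that of OSMR, as TGATTCA. The GC box GGGCGG, present on either strand in 44.9%, was found in those of OSMR, IL6ST, CD44 and STAT3. The share of G and C was 56.0% for CHI3L1 and 49.7% for CHI3L2, against a median of 58.7% over all windows. These matches describe letters in short windows and say nothing of binding.

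The other chitinase family genes stood at different levels, with CHIT1, CHIA and OVGP1 below the level filter on all arrays and CTBS and CHID1 above it. CHIT1, an active chitinase, was at 3.79 and 3.18 in 24-hour crizotinib and vehicle, and at 4.02 and 3.44 in 21-day crizotinib and control. CHIA, the acidic chitinase, was at 3.23 in 24-hour crizotinib and 2.48 in vehicle, and at 3.14 in 21-day crizotinib and 2.65 in the control. Both were above their controls in each pair, by 0.49 to 0.75. CTBS, a lysosomal enzyme that cleaves chitobiose units from glycans, was 1.18 higher after 24 hours, at 6.64 against 5.45 in vehicle, and 0.92 higher after 21 days, at 7.80 against 6.88 in the control. Its drug-free arrays differed by 1.43, and the difference of 24-hour crizotinib from the 21-day control was -0.25. CHID1, a lysosomal chitinase-domain protein, differed by -0.10 and -0.02.

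CHIT1 and CHIA are also direct neighbours on the chromosome, the first of CHI3L1 and the second of CHI3L2, as RefSeq orders protein-coding genes. On the other side of CHI3L1 lies MYBPH, a myosin binding protein gene, which differed by -0.22 and -0.32. DENND2D, on the other side of CHI3L2, differed by 0.34 and 0.61 below the level filter. Of 31 measured genes among the 32 that flank the 8 members, 2 on each side, a 2-fold difference was found for 1 higher and 1 lower gene after 24 hours, and for 2 higher and 1 lower after 21 days. Over all features that passed the level filter, 2.88% were higher and 2.13% lower at 24 hours, and 3.97% and 4.08% at 21 days. The 31 include genes below the filter, which could not be called, so the counts and shares have unlike bases. Nothing is read from the comparison. The 2-fold higher ones were CIMAP3 by CHI3L2 at 1.43 in the 24-hour pair, and LRCH2 by IL13RA2 at 1.75 and PAMR1 by CD44 at 1.16 in the 21-day pair. The LRCH2 difference depended on the reference: its drug-free difference was -1.92, and 21-day crizotinib differed from the vehicle array by -0.17. The lower one in each pair was BIRC5, by SOCS3.

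**Figure D1:**
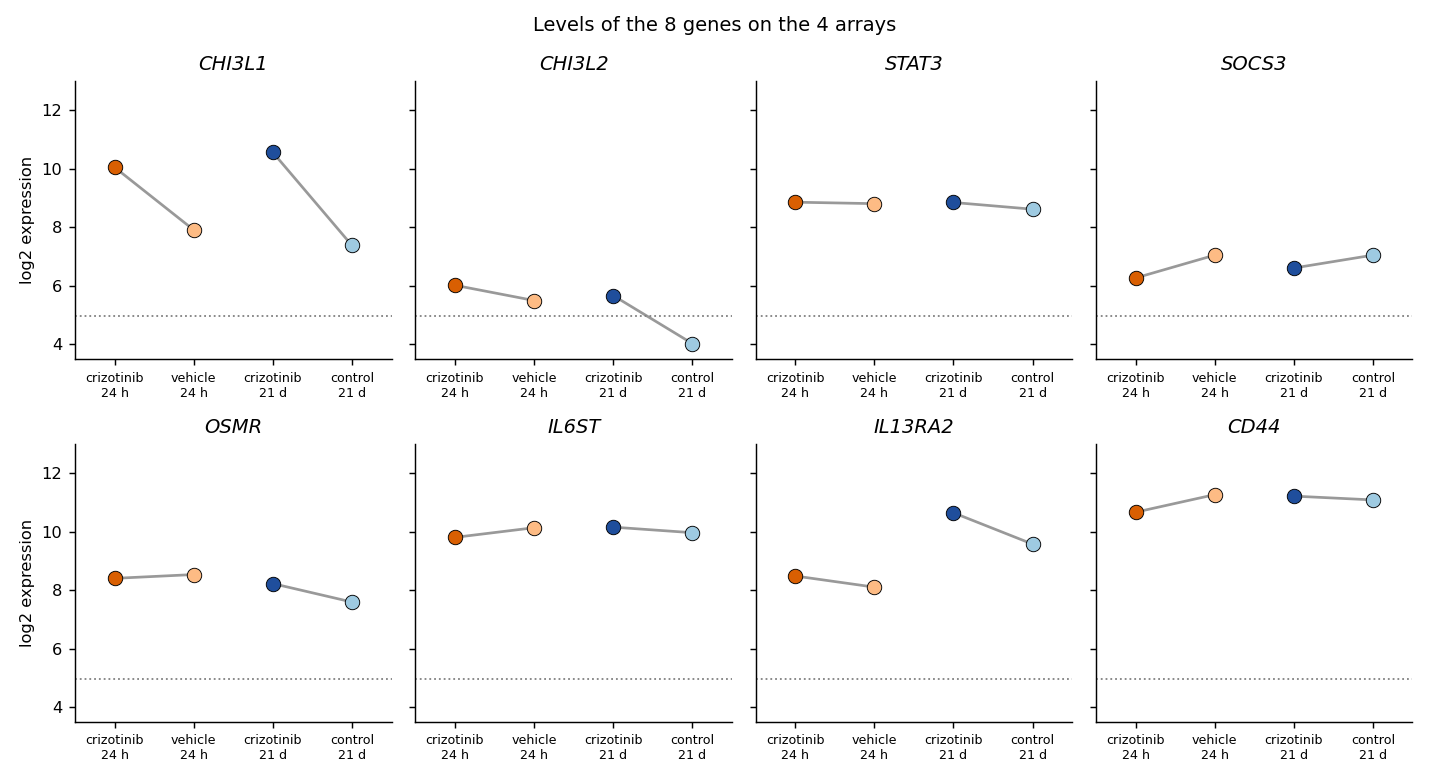
Levels of the 8 genes (log2 expression, vertical axis) on each of the 4 arrays (horizontal axis), with a grey line joining each crizotinib array to its own control and a dotted line at 4.96, the level filter. CHI3L1 stood at 10.05 and 10.56 on the crizotinib arrays and at 7.91 and 7.38 on the drug-free arrays, while STAT3 lay between 8.62 and 8.86 on all 4.

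STAT3 (Entrez gene 6774, chromosome 17), the transcription factor of the pathway, had the smallest range of the 8 genes over the 4 arrays, 0.24 on the log2 scale. It was at 8.86 in 24-hour crizotinib against 8.81 in vehicle, and at 8.85 in 21-day crizotinib against 8.62 in the 21-day control. The differences were 0.04 and 0.24, and the drug-free arrays were 0.20 apart with the 21-day control lower.

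SOCS3 (Entrez gene 9021, chromosome 17), the feedback inhibitor that STAT3 induces, was the 1 member that was lower on both crizotinib arrays. It was at 6.27 in 24-hour crizotinib against 7.05 in vehicle, and at 6.61 in 21-day crizotinib against 7.05 in the 21-day control. Both drug-free arrays stood at the same level to 2 decimals, above both crizotinib arrays. The differences of -0.78 and -0.44 were short of 2-fold.

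IL6ST (Entrez gene 3572, chromosome 5), the signalling subunit shared by the IL6 family receptors, was at 9.80 in 24-hour crizotinib against 10.13 in vehicle, and at 10.15 in 21-day crizotinib against 9.96 in the control. The pairs went opposite ways, at -0.32 and 0.19, and the range over the arrays was 0.34. OSMR (Entrez gene 9180, chromosome 5), which pairs with IL6ST to receive oncostatin M, was at 8.40 in 24-hour crizotinib against 8.53 in vehicle, and at 8.22 in 21-day crizotinib against 7.59 in the control. The 21-day difference of 0.62 also depended on the reference. The drug-free arrays differed by -0.94, and against the vehicle array the 21-day crizotinib array was lower, at -0.31.

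IL13RA2 (Entrez gene 3598, chromosome X), a high-affinity receptor for IL13 that is common on glioblastoma cells and has been reported as a receptor of CHI3L1, differed more between the drug-free arrays than between either crizotinib array and its control. It was at 8.48 in 24-hour crizotinib against 8.10 in vehicle, and at 10.64 in 21-day crizotinib against 9.57 in the 21-day control. Both 21-day arrays stood above both 24-hour arrays. The difference was 0.38 after 24 hours and 1.08 after 21 days, and 1.47 between the drug-free arrays. The difference of the 24-hour crizotinib array from the 21-day control was -1.09, and that of the 21-day crizotinib array from vehicle was 2.54.

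CD44 (Entrez gene 960, chromosome 11), the hyaluronan receptor and a surface marker of mesenchymal glioma cells, was at 10.66 in 24-hour crizotinib against 11.26 in vehicle, and at 11.21 in 21-day crizotinib against 11.08 in the control. The 24-hour crizotinib array was the lowest of the 4. The differences were -0.60 and 0.13.

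**Figure D2:**
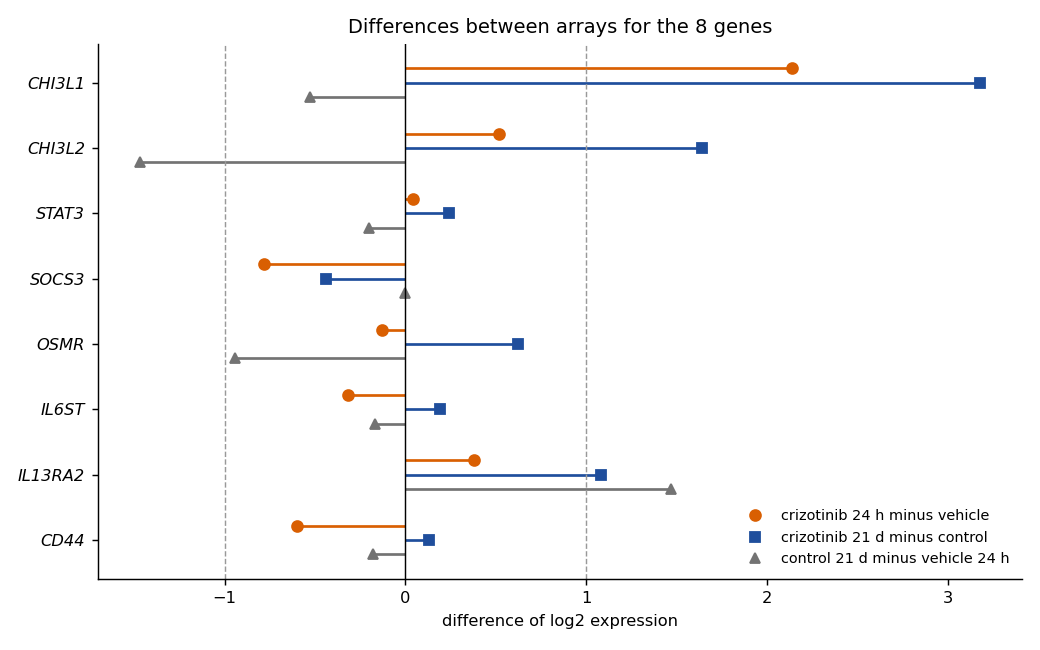
Difference of log2 expression (horizontal axis) for each of the 8 genes in 24-hour crizotinib minus vehicle, 21-day crizotinib minus control, and the 21-day control minus the 24-hour vehicle array, with dashed lines at 2-fold. CHI3L1 lies past 2-fold in both drug comparisons, at 2.14 and 3.18, while the drug-free differences of CHI3L2, at -1.47, and IL13RA2, at 1.47, are as large as or larger than most of the drug differences.

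Of the 8 genes, which all passed the level filter in every comparison, 1 was at least 2-fold higher after 24 hours, where 2.88% of all features that passed were. After 21 days 3 were, CHI3L1, CHI3L2 and IL13RA2, where 3.97% of all features were. None was at least 2-fold lower in either pair, against 2.13% of features at 24 hours and 4.08% at 21 days. The members were named with these differences known, so nothing is read from the counts. The median of the 8 was -0.04 after 24 hours and 0.43 after 21 days, against medians over all features of -0.01 and 0.01. Both pairs showed CHI3L1 at least 2-fold higher, as did 0.665% of the 11873 features that passed the filter in both. Between the drug-free arrays IL13RA2 was at least 2-fold higher and CHI3L2 at least 2-fold lower in the 21-day control, where 1.68% and 1.38% of features were.

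Beyond the 8 genes, 236 measured genes of 18 lists described the pathway around them, with the 8 left out of every count. The lists were chosen with earlier results of these data known, so their counts and medians are a description. A limma model took the drug-free arrays as one control group and was adjusted by Benjamini-Hochberg over 11891 features. Its 1 residual degree of freedom is the difference between these 2 cultures. At an adjusted p of 0.05 it called 0.353% of features higher and 1.14% lower in 21-day crizotinib, and 0.00841% higher and 0% lower in 24-hour crizotinib. Without the level filter it called no feature at 21 days, where 2952 passed an unadjusted p of 0.05, and the limma calls of the 7 list genes given below rest on that filter. At 24 hours 1935 features passed an unadjusted p of 0.05 in limma, and no gene of the 18 lists was called after adjustment. A second limma fit, which compared crizotinib with drug-free arrays and kept each pair as a block, called 0% of features in either direction, and 1737 at an unadjusted p of 0.05.

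Among the 18 lists, the ligands of the IL6 family had the largest median difference in the 21-day pair. Of 7 measured ligand genes, 5 passed the level filter at 21 days. All 7 were above their control at 21 days, where 51.1% of all features were, and the median difference was 0.86. At least 2-fold higher were 3, where 3.97% of the features that passed the filter were. After 24 hours 2 were above vehicle, where 48.4% of all features were, none was 2-fold apart and the median was -0.21. IL6 (Entrez gene 3569), which gives the family its name, was at 5.67 in 24-hour crizotinib against 5.68 in vehicle, and at 9.79 in 21-day crizotinib against 6.48 in the control. LIF, the leukaemia inhibitory factor, was at 6.75 in 24-hour crizotinib against 7.20 in vehicle, and at 9.81 in 21-day crizotinib against 7.79 in the control. For both, the 21-day crizotinib array stood above the other three. In limma IL6 rose by 3.71 (SE 0.378, adjusted p = 0.0255) and LIF by 2.31 (SE 0.316, adjusted p = 0.0464) in 21-day crizotinib. IL11 was at 5.92 in 24-hour crizotinib against 6.53 in vehicle, and at 8.06 in 21-day crizotinib against 6.50 in the control. CTF1, cardiotrophin, differed by 0.54 and 0.76. OSM, the ligand of OSMR, was between 3.54 and 3.97 on all arrays, below the level filter.

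Among receptor subunits, kinases and STAT genes that passed the level filter, JAK2 was the 1 past 2-fold. Of 5 further receptor genes none was 2-fold apart in either pair, with medians of 0.15 and -0.08. LIFR, the LIF receptor subunit and the neighbour of OSMR on the chromosome, was at 8.49 in 24-hour crizotinib against 7.97 in vehicle, and at 6.95 in 21-day crizotinib against 7.09 in the control. IL6R, the IL6 binding subunit, differed by 0.20 and -0.74. Of 8 kinase and STAT genes, 1 was called 2-fold higher after 24 hours, as were 2.88% of features that passed the filter. This was JAK2, at 7.51 in crizotinib against 6.43 in vehicle, a difference of 1.08 that was 0.94 against the 21-day control. At 21 days JAK2 was at 6.55 in crizotinib against 6.57 in the control. STAT5A, below the level filter on all arrays, differed by -1.11 after 24 hours. JAK1, a kinase used by IL6ST, was higher in both pairs, by 0.58 and 0.78. Of 15 other inhibitors of the pathway none was 2-fold apart, with medians of -0.02 and 0.02. PIAS1, a SUMO ligase of the family that restrains STAT factors, had their highest 24-hour difference, 0.37, and the SOCS family gene SOCS4 their highest 21-day difference, 0.36. The lowest among those above the level filter were those of the SOCS5 gene at -0.16 in the 24-hour pair and of PIAS4 at -0.44 in the 21-day pair.

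**Figure D3:**
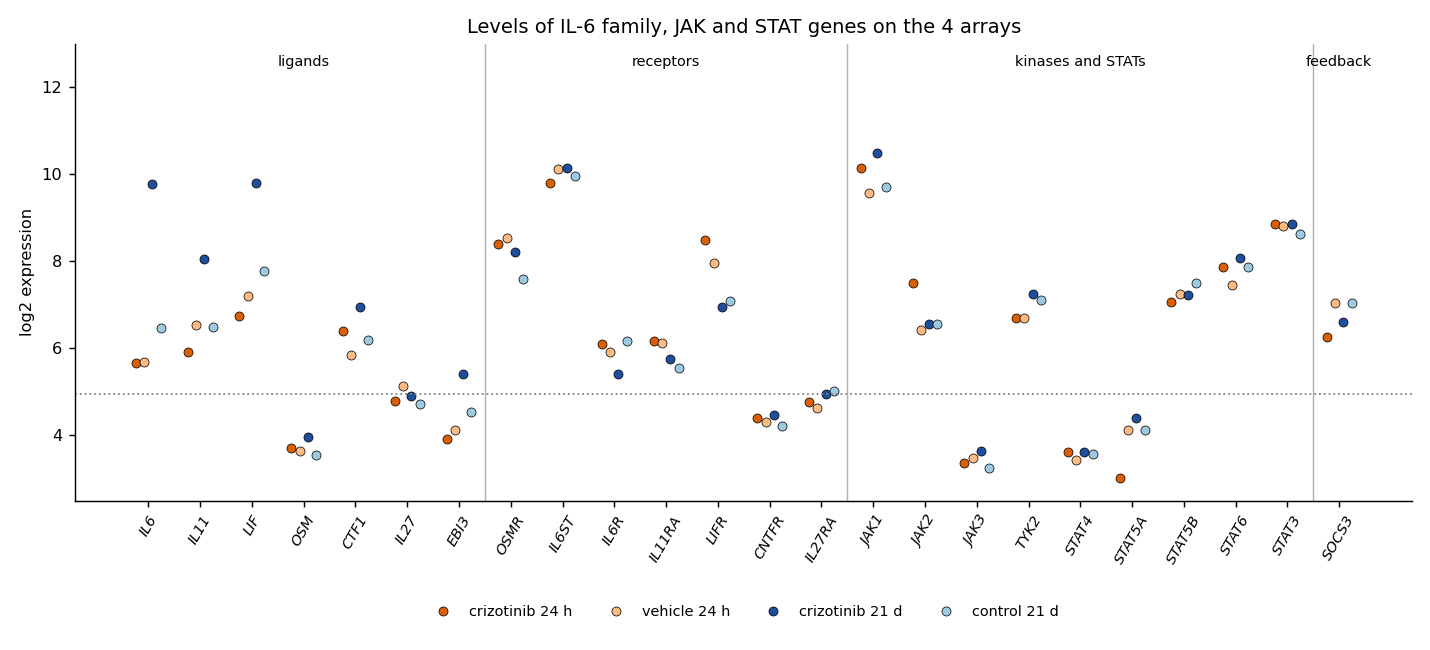
Log2 expression (vertical axis) of IL6 family ligands, receptor subunits, JAK and STAT genes and SOCS3 on the 4 arrays, with a dotted line at 4.96. The 21-day crizotinib array stands apart for IL6 at 9.79, LIF at 9.81 and IL11 at 8.06, while IL6ST and STAT3 differ by 0.34 and 0.24 at most among the arrays.

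Genes reported as STAT3 targets moved in both directions. Of 20 measured targets 15 were below vehicle after 24 hours, as were 51.2% of all features, and their median was -0.29. None was at least 2-fold higher and 3 were at least 2-fold lower, against 2.88% and 2.13% of features that passed the filter. The lower ones were MYC, the growth transcription factor, at -1.47, BIRC5, the mitotic protein survivin, at -1.22 and cyclin D1 (CCND1) at -1.19. Against the 21-day control CCND1 was at -0.96. MCL1, an anti-apoptotic BCL2 relative, differed by -0.93, IER3, an early response gene, by -0.82 and the kinase PIM1 by -0.71. At 21 days 11 targets were above the control, where 51.1% of all features were, and the median was 0.17. At least 2-fold apart were 2 higher and 1 lower, against 3.97% and 4.08% of features that passed the filter. The higher ones were IL6 and TIMP1, a metalloprotease inhibitor and mesenchymal marker, at 11.95 in 21-day crizotinib against 10.95 in the control, a difference of 1.00 that lies at the threshold and was 0.95 with each array centred on its median. BIRC5 was the lower one, at 5.59 in 21-day crizotinib against 8.05 in the control, and in limma it fell by 2.49 (SE 0.223, adjusted p = 0.0248). BIRC5, MYC and CCND1 are also genes of cell division, which other pathways regulate. CCND1 and IER3 were above the control at 21 days, at 0.82 and 0.88, and the acute-phase targets SERPINA3 and LRG1 differed by -0.11 and -0.23 at 24 hours and by 0.24 and 0.14 at 21 days.

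The factors reported to bind or regulate CHI3L1 were mostly within 2-fold of their own controls. NFIX, NFIA, NFIB and NFIC are the nuclear factor I genes. NFIB was at 9.20 in 24-hour crizotinib against 8.48 in vehicle, and at 6.81 in 21-day crizotinib against 7.99 in the control, and was the 1 of 9 genes in this group at least 2-fold apart, at -1.17 in the 21-day pair. NFIX differed by 0.62 and -0.10. RELB, a subunit of NF-kB, was 0.77 higher at 21 days and differed by 0.01 at 24 hours. Against the drug-free array of the other pair, 2 of the 9 were at least 2-fold higher at 24 hours, NFIX and NFIB. By that reference 1 was higher at 21 days, RELB, and 1 lower, NFIB. Of 8 further receptors and binding partners reported for CHI3L1 none was 2-fold apart. LGALS3, a galectin, came nearest, with 7.85 in 24-hour crizotinib against 6.85 in vehicle, and 8.02 in 21-day crizotinib against 7.16 in the control. Its 24-hour difference was 0.99, and it reached the 2-fold threshold, at 1.00, with each array centred on its median. SDC1, a heparan sulfate proteoglycan, was lower in both pairs, at -0.74 and -0.42. TMEM219, a membrane protein that acts with IL13RA2, was higher in both, at 0.46 and 0.52, and the integrin subunit ITGB3 differed by -0.33 and 0.69.

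The other IL13 and IL4 receptor genes stayed close to their controls. IL13RA1, the signalling receptor for IL13, was at 10.10 in 24-hour crizotinib against 9.77 in vehicle, and at 9.85 in 21-day crizotinib against 9.78 in the control. Its drug-free arrays were 0.01 apart, against 1.47 for IL13RA2. IL4R differed by 0.05 in both pairs, and the cytokine genes IL13 and IL4 were below the level filter on all arrays. Among 8 genes around CD44, EZR, the protein ezrin that links CD44 to the actin cortex, was at 8.29 in 24-hour crizotinib against 9.06 in vehicle, and at 8.14 in 21-day crizotinib against 9.52 in the control. The 21-day difference of -1.38 was the 1 in this group past 2-fold, and was -0.92 against the vehicle array. SPP1, the CD44 ligand osteopontin, was higher in both pairs, at 0.48 and 0.55, and ADAM10, a protease that sheds CD44, differed by 0.56 and -0.02.

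The transcription factors listed for the mesenchymal state, drivers and the repressor ZBTB18 together, lay within 2-fold in both pairs. Of 7 measured besides STAT3, none was called, with medians of -0.05 and 0.00. CEBPB, which acts with STAT3 in mesenchymal glioma, was at 6.66 in 24-hour crizotinib against 6.35 in vehicle, and at 7.04 in 21-day crizotinib against 6.59 in the control. BHLHE40 had the largest positive differences, 0.42 and 0.72, and ZBTB18, a repressor of mesenchymal genes, was lower at 21 days, at -0.68.

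Genes of the mesenchymal-like cell states were divided. Of 44 measured genes of the first state, which CHI3L1 and CD44 belong to, 25 were above vehicle after 24 hours. Of all features 48.4% were, and the median of the 44 was 0.08. At least 2-fold higher was 1 and none was 2-fold lower, against 2.88% and 2.13% of features that passed the filter. At 21 days 5 were at least 2-fold higher and none 2-fold lower, against 3.97% and 4.08% of features that passed the filter. The median was 0.32, with 30 above the control, against 51.1% of all features. Against the vehicle array 8 were at least 2-fold higher and 1 lower, and 4 were higher against both references. EFEMP1, a fibulin of the matrix, was the gene called at 24 hours, at 9.23 in crizotinib against 7.22 in vehicle. It was at 4.12 and 4.16 on the 21-day crizotinib and control arrays, a drug-free difference of -3.06. The 5 at 21 days were the complement component C3, at 10.71 in crizotinib against 8.50 in the control, the calcineurin regulator RCAN1 at 1.37, the superoxide dismutase SOD2 at 1.24, the lipoprotein APOE at 1.11, or 0.67 against the vehicle array, and TIMP1. In limma C3 rose by 2.44 (SE 0.278, adjusted p = 0.0293) in 21-day crizotinib. C1R and C1S, the first complement proteases, were higher in both pairs, at 0.86 and 0.51 in the 24-hour pair and at 0.58 and 0.32 in the 21-day pair. The most used mesenchymal structural marker, VIM, had differences of -0.27 at 24 hours and -0.12 at 21 days. S100A16, a calcium binding protein, had the lowest 24-hour difference at -0.77, and TUBA1C, a tubulin, the lowest at 21 days at -0.60.

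The second, hypoxia-linked state differed in the 21-day pair. Of its 48 measured genes none was 2-fold apart after 24 hours, where 2.88% of features that passed the filter were higher and 2.13% lower. Their median was 0.07. After 21 days 11 were at least 2-fold higher and none 2-fold lower, against 3.97% and 4.08% of features that passed the filter. The median was 0.54, with 36 above the control, against 51.1% of all features. Against the vehicle array in place of the 21-day control the count was 10 and the median 0.44, but 5 genes were in both counts, 6 were 2-fold higher against the 21-day control alone and 5 others against the vehicle array alone. IGFBP3, ADM, ATF3, DDIT3 and PPP1R15A were the 5 in both. In limma IGFBP3, an IGF binding protein, rose by 2.89 (SE 0.399, adjusted p = 0.0475) and adrenomedullin, ADM, by 2.02 (SE 0.263, adjusted p = 0.0429). The limma call of IGFBP3 was lost after quantile normalization, at an adjusted p of 0.0521. The stress factors ATF3 and DDIT3 were at 1.37 and 1.24 and PPP1R15A, which restores translation after stress, at 1.24. The 6 others were below 2-fold against the vehicle array. NDRG1, at 1.79 against the control, and BNIP3, a mitophagy receptor, at 1.53, were 0.39 and 0.37 against vehicle, since their drug-free differences were -1.40 and -1.16, both at least 2-fold lower in the 21-day control. The prolyl hydroxylase gene P4HA1 was at 1.42 against the control and 0.95 against vehicle, and GDF15, a stress-induced cytokine, at 1.25 and 0.93. The glucose transporter genes SLC2A1 and SLC2A3 were at 1.14 and 1.01 against the control, and at 0.56 and 0.66 against vehicle. SLC6A6, the taurine transporter, was the lowest at -0.86.

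Subtype genes from tumour tissue gave a median of -0.08 after 24 hours and 0.06 after 21 days over 18 genes. PLAUR, the urokinase receptor, was the 1 called at 24 hours, at 8.32 in crizotinib against 9.56 in vehicle, and LOX, which crosslinks collagen, the 1 called at 21 days, at 10.95 in crizotinib against 9.52 in the control. Proneural genes, the opposite subtype, were mostly low, with medians of -0.08 and 0.00 over 15 genes. The growth factor receptor gene PDGFRA was at 5.63 in 21-day crizotinib against 3.97 in the control, and the adhesion molecule NCAM1 at 5.69 in 21-day crizotinib against 6.90 in the control, a difference of -1.21 that was -0.62 against the vehicle array. Among the astroglial markers, SLC1A3, a glutamate transporter, was at 7.84 in 24-hour crizotinib against 7.75 in vehicle, and at 5.44 in 21-day crizotinib against 7.41 in the control. In limma it fell by 2.13 (SE 0.256, adjusted p = 0.0347) in 21-day crizotinib.

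**Figure D4:**
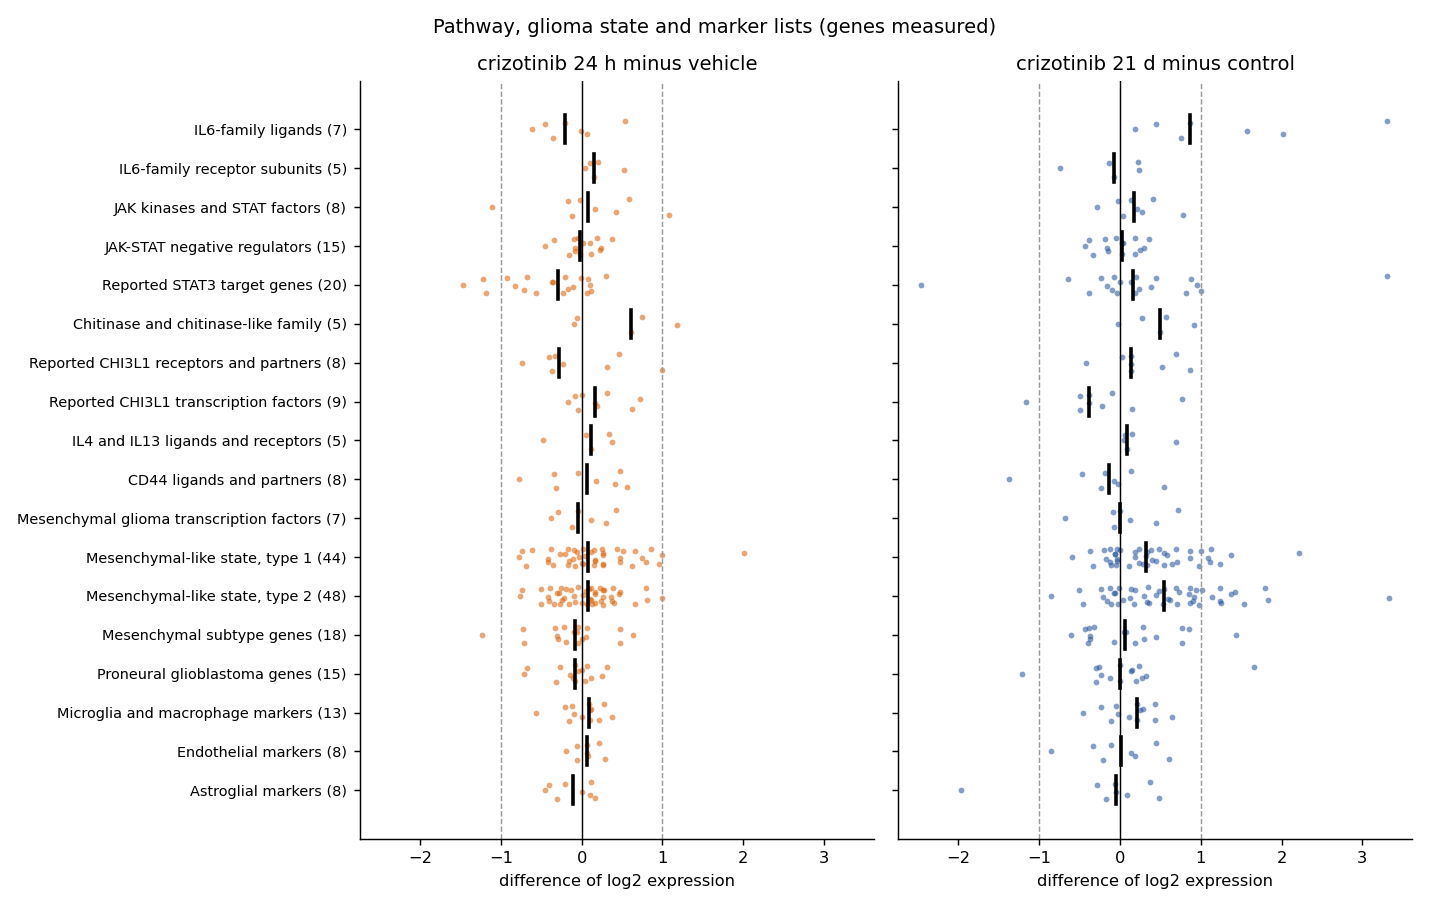
Difference of log2 expression (horizontal axes) of each measured gene in the 18 lists for 24-hour crizotinib minus vehicle (left) and 21-day crizotinib minus control (right), with a black bar at each list's median and dashed lines at 2-fold. The IL6 family ligands have medians of -0.21 and 0.86, and the second mesenchymal-like state 0.07 and 0.54, while the mesenchymal transcription factors stay at -0.05 and 0.00.

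The genes whose levels over the 4 arrays were most like those of CHI3L1 were sought among 10774 protein-coding features, by the Euclidean distance between log2 values centred on their mean over the arrays. The nearest was RSPO3, a secreted enhancer of Wnt signalling, at a distance of 0.53. It was at 6.20 in 24-hour crizotinib against 4.66 in vehicle, and at 6.86 in 21-day crizotinib against 3.44 in the control. Next were the lysosomal protease gene CTSO at 0.86, the integrin subunit ITGB8 at 1.01, the p53-inducible TP53INP1 at 1.03 and the interleukin antagonist IL1RN at 1.03. For CTSO the differences were 1.55 and 2.14, for ITGB8 1.20 and 2.12, for TP53INP1 1.29 and 2.04, and for IL1RN 1.51 and 3.02. None of the other 7 genes, the other chitinase family genes or the listed STAT3 targets was among the 5. With 5 kept of 10774 features this was likely for any short list, so nothing is read from it. The 5 were chosen for likeness to CHI3L1, so their higher levels on the crizotinib arrays follow from that choice.

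**Figure D5:**
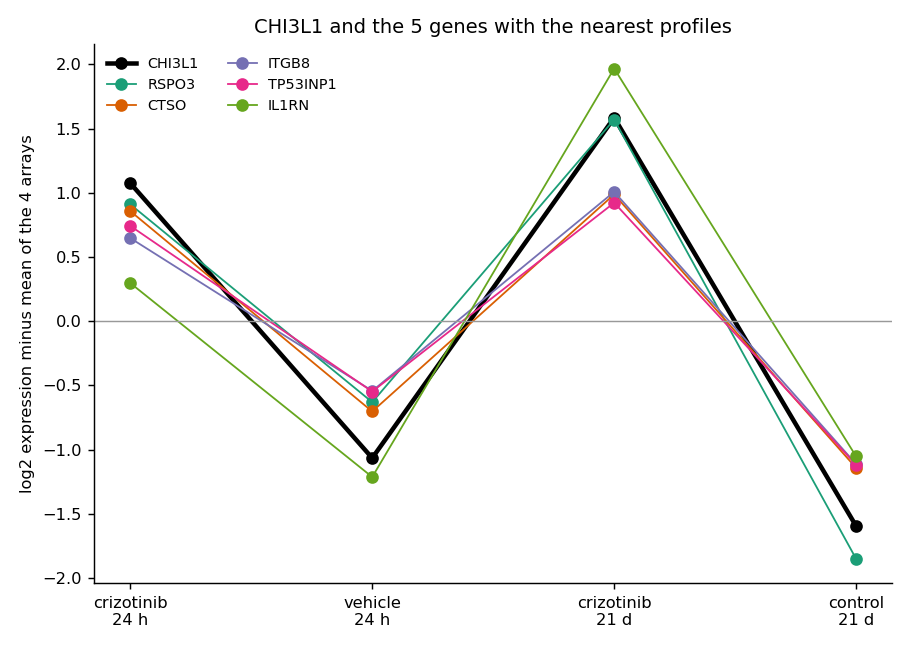
Log2 expression minus the mean of the 4 arrays (vertical axis) for CHI3L1 and the 5 genes with the nearest profiles, by array. All 6 lie above their mean on both crizotinib arrays and below it on both drug-free arrays, with RSPO3 at a distance of 0.53 from CHI3L1. The 5 were chosen for this likeness.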

How the data were processed

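Per the submitters' processing notes, the authors made the deposited log2 expression values by RMA with affy 1.36.1 in R 2.15.1, from Affymetrix arrays labelled with a biotin kit, with 1 feature per Entrez gene number. The genome build and probe annotation are not given in the sources used here. Array medians lay between 4.92 and 4.98. RMA compresses differences between low values toward 0, and no detection calls were used here, so no gene can be called absent. Symbols came from the platform's gene table, and 1328 features were unnamed here.

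Groups came from the labels. Each crizotinib array was set against the drug-free array of its pair, with calls at 2-fold and a level filter at 4.96. limma 3.58.1 in R 4.3.3 (lmFit, eBayes, features with a mean at or above 4.96) was fitted with the drug-free arrays as one group, and with crizotinib over both pairs and the pair as a block. The p-values of the one-group fit reflect the difference between the drug-free cultures alone, which may be technical. Both fits had 1 residual degree of freedom and were tested on simulated data. The 8 genes and the lists were chosen with earlier results of these data known. The lists hold 247 genes besides the 8, and the 11 without a feature were not analysed here. Named genes are list members at least 2-fold apart, the highest and lowest of a list, limma calls, defining markers and the 5 profiles nearest to CHI3L1. Others were added after their values were seen for their known roles, as were the flanking genes and the motifs.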

Additional observations from a re-analysis of the deposited data

Results flagged for a closer look

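Among the 8 genes and the 236 measured list genes, 5 list genes differed by at least 1.5-fold in opposite directions in the 24-hour and 21-day pairs. The difference between the pairs was not tested, since each pair has 1 array per condition and the pairs also differ in dose, time and culture. CCND1, cyclin D1, was at -1.19 after 24 hours and 0.82 after 21 days, so the pairs were 2.01 apart. IL11 was at -0.61 and 1.57, 2.18 apart, and RCAN1 at -0.69 and 1.37, 2.06 apart. IER3, an early response gene, was at -0.82 and 0.88, 1.70 apart. NFIB, a nuclear factor I gene, went the other way, at 0.72 and -1.17, a 21-day minus 24-hour value of -1.90. The 8 genes themselves gave no such case. How many of all features meet the same rule was not counted, so nothing is read from these counts.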

How the results depend on the processing

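For CHI3L1 the difference lay between 2.14 and 2.67 at 24 hours under another reference and another array scaling. At 21 days it lay between 2.65 and 3.18. Both crizotinib arrays stood above both drug-free arrays by more than 2-fold, which was known when CHI3L1 was chosen. A change of reference could therefore not move it across the threshold, and these ranges are a description. The largest shifts came from the drug-free array of the other pair as reference, with 2.67 and 2.65. The 8 genes gave 16 differences under 4 such settings, of which 50 values moved by less than 0.427, the SD of the drug-free differences over features past the level filter, and 14 by more. With the other pair's drug-free array 2 of the 8 genes were at least 2-fold higher at 24 hours, CHI3L1 and CHI3L2, and 1 was lower, IL13RA2. With the mean of the drug-free arrays 2 were higher, and at 1.5-fold 2 were lower. CTBS turned to -0.25 at 24 hours against the other pair's drug-free array. Its own drug-free arrays differed by 1.43.

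Counts over the 236 list genes at 24 hours were 3 higher and 4 lower. They became 11 and 9 with the other pair's drug-free array, and 15 and 19 at 1.5-fold. At 21 days, 21 higher and 5 lower became 47 and 11 at 1.5-fold. Over all features at 24 hours, 359 higher and 265 lower became 681 and 656 with the other reference, 1269 and 1091 at 1.5-fold, and 178 higher with the level filter at the 75th percentile. At 21 days, 494 higher and 508 lower became 1337 and 1398 at 1.5-fold and 268 and 326 at the stricter filter. With no level filter limma called 0 features at 24 hours and 0 higher and 0 lower at 21 days, against 1, 42 and 135, and 2662 and 2952 features passed an unadjusted p of 0.05. That filter setting tests more features. IL6, LIF, BIRC5, C3, ADM, IGFBP3 and SLC1A3 lost their limma calls there, at adjusted p of 0.0559 for BIRC5 to 0.109 for IGFBP3, and IGFBP3 also after quantile normalization, at 0.0521. No paired analysis was possible because each condition has 1 array, other than the fit with the 24-hour and 21-day pairs as blocks, which called 0 features under each setting run.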
